A study of Homo sapiens with 4 samples.

Results

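To describe the chromatin state of the genes that encode EMT transcription factors in triple-negative breast cancer cells, H3K27ac peaks were examined at 10 of 19970 protein-coding genes on chromosomes 1 to 22 and X. EMT, the epithelial to mesenchymal transition, is the switch by which epithelial cells lose their junctions and become motile. The members were named as a family, with earlier results of these data known: SNAI1, SNAI2 and SNAI3, ZEB1 and ZEB2, TWIST1 and TWIST2, TCF4, PRRX1 and FOXC2. For each gene, peaks were taken within 1 kb of its canonical start site and within 100 kb of its gene body, on assembly hg38 with GENCODE gene models.

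The series measured H3K27ac by ChIP-seq in MDA-MB-231 and Hs578T, established human lines of triple-negative breast cancer, which lacks the hormone receptors and HER2 amplification. All 4 libraries, 2 biological replicates per line, came from cells starved of serum for 8 h and given 10 ng/ml of TWEAK, the ligand of the receptor Fn14, for 48 h. TWEAK was then washed out, for 72 h in the design text of the series and for longer in the text of the study. Every library shares this treatment, and the libraries hold no contrast from which a response to TWEAK could be read.

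SNAI and ZEB proteins are zinc finger repressors that bind E-boxes, short motifs such as CACCTG, in the promoters of epithelial genes including CDH1, which encodes E-cadherin. TWIST1 and TWIST2 are basic helix-loop-helix (bHLH) factors that pair with E-proteins such as TCF4, PRRX1 is a homeobox factor and FOXC2 is a forkhead factor, and all of them are known to promote mesenchymal traits in carcinoma cells. H3K27ac is an acetyl mark found on active promoters and enhancers. A peak has no strand, so at a start site shared by 2 genes it cannot be told which one it belongs to.

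The list labelled MDA-MB-231 replicate 1 stood apart. It held 209 peaks over 0.113 Mb, whereas the other 3 lists, called the large lists below, held between 43353 and 46330 peaks over 81.8 to 90.7 Mb. It marked the start sites of 12 genes, or 0.0601% of all protein-coding genes, and 97.5% of genes had no peak within 100 kb in it. No member start site was marked in it, and its 1 peak near any member was 201 bp wide with a fold enrichment of 3.36, inside RNF114 at 35.7 kb from the SNAI1 start site. The number of reads behind each list was not analysed here, so depth is unknown, and a missing peak in this list cannot be told apart from a library that yielded few peaks. Values are therefore given per list, and the large lists are described in the order MDA-MB-231 replicate 2, Hs578T replicate 1 and Hs578T replicate 2.

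No test was made between the lines, because 2 libraries against 2 cannot give an exact two-sided permutation p below 0.333. Fold enrichment is the signal of a peak over the local background of its own library, so its size was not compared between lists, and percentiles within a list are given instead.

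The start sites differed in the sequence before them. RefSeq promoters, of 250 bases before to 50 bases after the start on GRCh38.p14, were matched by symbol for 5 of the 10 members: TWIST2, ZEB1, ZEB2, PRRX1 and TCF4. SNAI1, SNAI2, SNAI3, TWIST1 and FOXC2 had no entry. The bases that lie outside exons of protein-coding genes are shown for a gene with a strong peak at its start site and for a pair of genes with none, each 5′ to 3′, with the E-box in capitals. Exons of lncRNA genes were not taken out.
ZEB1, chr10:31318167-31318416, plus strand: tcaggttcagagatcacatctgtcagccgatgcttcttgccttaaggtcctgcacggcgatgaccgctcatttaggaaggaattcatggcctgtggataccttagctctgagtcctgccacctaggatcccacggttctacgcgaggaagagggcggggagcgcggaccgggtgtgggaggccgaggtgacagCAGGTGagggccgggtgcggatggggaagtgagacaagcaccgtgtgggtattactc
TWIST2, chr2:238847835-238848031, plus strand: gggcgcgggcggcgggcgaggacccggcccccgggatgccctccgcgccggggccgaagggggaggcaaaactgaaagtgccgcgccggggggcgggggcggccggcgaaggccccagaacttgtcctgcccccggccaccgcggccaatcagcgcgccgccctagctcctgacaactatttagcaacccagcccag
TCF4, chr18:55636028-55636207, minus strand: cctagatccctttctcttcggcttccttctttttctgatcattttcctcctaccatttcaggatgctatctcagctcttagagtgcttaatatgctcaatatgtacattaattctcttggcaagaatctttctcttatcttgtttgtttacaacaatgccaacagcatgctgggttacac

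The ZEB1 stretch lay inside the promoter peak in all 3 large lists and carried 1 E-box, CAGGTG, of the type that SNAI and ZEB proteins bind. The TWIST2 and TCF4 stretches lay in no peak of any list. Over the whole 300 bases, GC content was 66.7% for TWIST2, 58.3% for ZEB1, 53.0% for PRRX1, 49.0% for ZEB2 and 41.3% for TCF4. The median over 15315 promoters of protein-coding genes was 63.0%, so TWIST2 alone of the 5 was above it. TWIST2 held 29 CpG dinucleotides and TCF4 held 3, against a median of 22. Among all promoters, 19.8% carried CACCTG or CAGGTG on either strand and 3.68% carried the AP-1 motif TGACTCA or TGAGTCA, which is bound by FOS and JUN proteins. Of the 5 members, 1 carried the E-box and 0 carried AP-1. Counted from the canonical start, the RefSeq start lay at −799 bp for ZEB1 and at −47765 bp for TCF4, so these stretches describe other start sites of those genes than the ones used for peaks.

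Few of these start sites carried H3K27ac. A peak lay within 1 kb of the canonical start of 4, 3 and 3 of the 10 members in the large lists. Over all protein-coding genes the share was 58.1% in MDA-MB-231 replicate 2, 58.2% in Hs578T replicate 1 and 56.4% in Hs578T replicate 2, against 40%, 30% and 30% of the members. The count was 3 ± 0 (SD, n = 2) in Hs578T and 2 ± 2.83 in MDA-MB-231, where it was 4 without replicate 1. ZEB1, SNAI2 and ZEB2 were marked in all 3 large lists and SNAI1 in MDA-MB-231 replicate 2 alone, whereas SNAI3, TWIST1, TWIST2, PRRX1, TCF4 and FOXC2 were marked in none.

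ZEB1, which represses CDH1 and the miR-200 family, had the strongest promoter peak of the members. The gene (ENSG00000148516.23) lies on the plus strand at chr10:31318495-31529814. Its promoter peak was 2847 bp wide with a fold enrichment of 24.3 in MDA-MB-231 replicate 2, 3225 bp with 24.2 in Hs578T replicate 1, and 2838 bp with 17.0 in Hs578T replicate 2. By fold enrichment these stood at percentiles 96.9, 97.8 and 95.8 of all promoter peaks of their lists, and by width at 76.6, 78.9 and 76.3. Relative to the canonical start, the peaks began at −1338, −1818 and −1369 bp, ended at 1508, 1406 and 1468 bp, and so covered it. All 4 start sites of basic GENCODE transcripts lay within 1 kb of the peak in each list. The peaks also covered the start of ZEB1-AS1, an antisense lncRNA that begins 475 bp inside ZEB1. The lists therefore do not tell to which of the pair the signal belongs.

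SNAI2, also known as SLUG, is the SNAI factor of basal and mesenchymal mammary cells. The gene (ENSG00000019549.13) lies on the minus strand at chr8:48917598-48921740. Its promoter peak measured 3627, 3226 and 2998 bp in the large lists, broader than the median promoter peak of 1792, 1897 and 1804 bp. Fold enrichment was 5.57, 5.73 and 5.18, below the promoter medians of 9.18, 8.13 and 6.86. It was thus wide and shallow, with width at percentiles 85.1, 78.9 and 78.4 and fold enrichment at percentiles 21.0, 28.3 and 30.4. The peak began at −1214, −1045 and −1016 bp and ended 2412, 2180 and 1981 bp into the gene. The lncRNA ENSG00000288761 starts inside the same peak.

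ZEB2, a paralogue of ZEB1 with a prominent role in neural crest and blood cells, was marked but weakly. The gene (ENSG00000169554.23) lies on the minus strand at chr2:144364364-144521057. Its start-site peak was 471, 644 and 356 bp wide with a fold enrichment of 3.35, 3.23 and 2.72. Width stood at percentiles 4.35, 6.98 and 2.57 of promoter peaks and fold enrichment at 3.0, 5.06 and 0.888. The −log10 q-value was 2.5, 2.69 and 1.24, so in Hs578T replicate 2 the peak was lost when q was held at or below 0.01. A stronger peak lay at 2.6 kb inside the gene, at the start of the lncRNA ZEB2-AS1, with a fold enrichment of 6.1, 7.7 and 5.57. Of the 19 start sites of basic ZEB2 transcripts, 14 had a peak within 1 kb in each large list.

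SNAI1, the SNAI factor that acts early in EMT, lay at the edge of detection. The gene (ENSG00000124216.4) lies on the plus strand at chr20:49982980-49988886. In MDA-MB-231 replicate 2 a peak of 224 bp with a fold enrichment of 3.3 ended 177 bp before the start site without covering it. It stood at percentile 0.267 of promoter peaks by width and 2.64 by fold enrichment. In the Hs578T lists the nearest peak was 5775 bp and 31.2 kb from the start site. SNAI1 was thus the only member with a start site called in some large lists and not in others, and that call came from 1 narrow peak in 1 library.

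**Figure D1:**
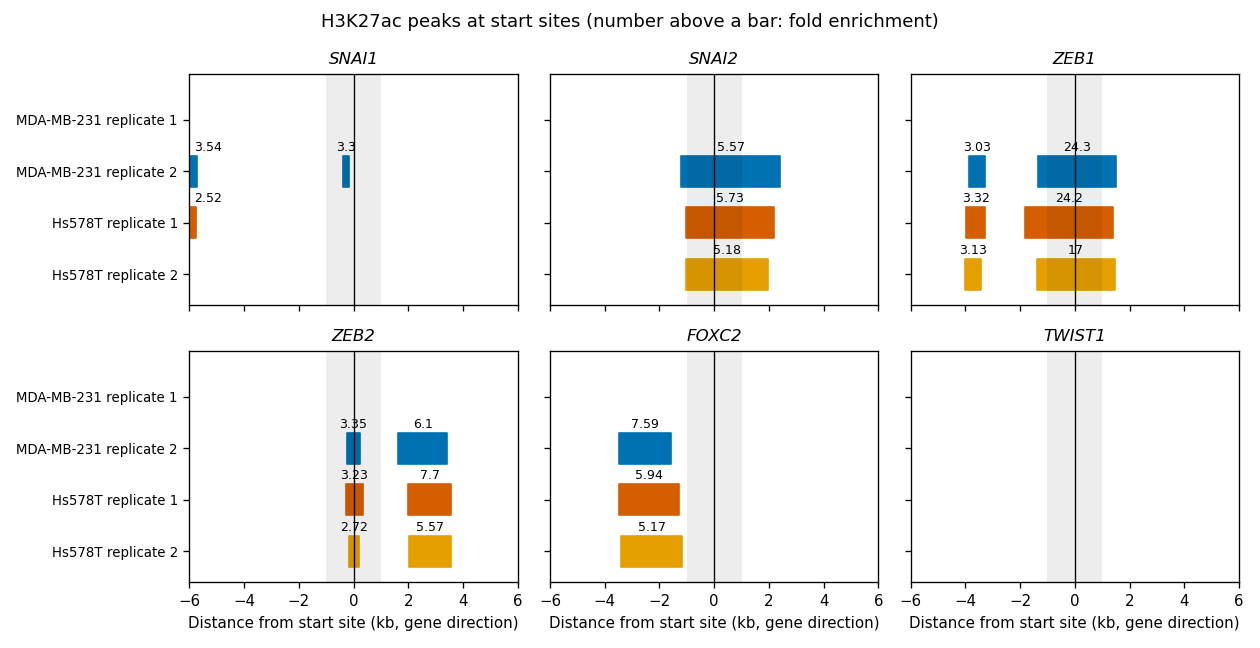
H3K27ac peaks around the start sites of 6 members, with the distance from the canonical start in kb in the direction of transcription on the x axis, 1 row per list, the 1 kb window shaded, and the fold enrichment above each bar. ZEB1 has peaks at 24.3, 24.2 and 17.0, the SNAI2 peaks are 2998 to 3627 bp wide, the ZEB2 bars are narrow, the FOXC2 bars end outside the shaded window, and TWIST1 is empty, as is the row of MDA-MB-231 replicate 1 in every panel.

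The 6 unmarked members differed in how far the nearest peak was. FOXC2 lay just outside the 1 kb limit, with the nearest peak at 1588, 1290 and 1169 bp in the large lists. This peak, at −2.33 kb, was 1908, 2185 and 2230 bp wide with a fold enrichment of 7.59, 5.94 and 5.17, and a window of 2.5 kb counted FOXC2 as marked in all 3. The nearest peak lay at 14.1, 14.1 and 14.2 kb for SNAI3 and at 15.6, 15.6 and 15.7 kb for TWIST2. For TWIST1 it lay at 37.9, 38 and 37.9 kb, and for PRRX1 at 40.4, 43.6 and 43.7 kb. TCF4 was farthest, at 487, 491 and 487 kb. None of these 6 genes gained a promoter peak when the start sites of all basic transcripts were used, 31 of them for TCF4 and 3 each for TWIST2 and PRRX1.

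Acetylation within 100 kb of the gene bodies was present around 9 of the 10 members in each large list. This was near the share over all protein-coding genes, of which 8.34%, 8.12% and 8.27% had no peak within 100 kb. In the large lists 64, 58 and 56 peaks overlapped these windows and covered 94061, 96272 and 86332 bp of 3068230 bp. The Hs578T lists held 57 ± 1.41 peaks (SD, n = 2) and 91302 ± 7030 bp. The MDA-MB-231 lists held 32.5 ± 44.5 peaks and 47131 ± 66400 bp, or 64 peaks and 94061 bp without replicate 1. The windows were covered to 3.07%, 3.14% and 2.81%, close to 2.7%, 2.99% and 2.77% of the genome. The median over members was 2.79%, 3.1% and 2.58%, below the median over all protein-coding genes of 3.96%, 4.37% and 4.0%. FOXC2, SNAI1 and SNAI3 were above that median in each large list, and the other 7 were below it.

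**Figure D2:**
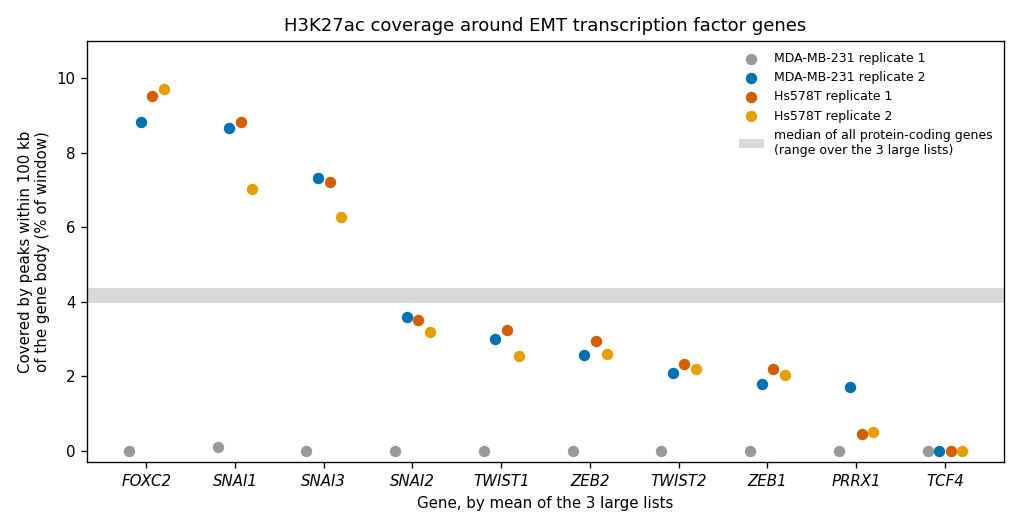
Percentage of each member's window, the gene body with 100 kb on either side, covered by H3K27ac peaks, with 1 point per list, members ordered by the mean of the large lists, and a grey band for the median of all protein-coding genes. FOXC2, SNAI1 and SNAI3 lie above the band at 6.28 to 9.69%, the other members lie below it, and TCF4 is at 0 in every list.

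Among the SNAI genes, SNAI1 had the most peaks around it in each large list, at the starts of other genes, inside them and between genes. Its window held 14, 11 and 9 peaks covering 17806, 18131 and 14461 bp. The strongest, at −66.8 kb, overlapped the start of SPATA2, with a fold enrichment of 22.3, 18.2 and 14.1, and another, at −46.6 kb, the start of RNF114, a ubiquitin ligase. The strongest peak away from any start site lay between genes at 51.4 kb, with a fold enrichment of 11.2, 9.48 and 8.71 and a width of 1917, 2010 and 2022 bp. A region of 275 bp at −35.9 kb, inside RNF114, was the only one near a member that was called in all 4 lists, with a fold enrichment of 2.67, 3.8 and 4.39 in the large lists.

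SNAI2 had few peaks, and they were close to the gene. Its window held 4, 4 and 3 peaks covering 7352, 7167 and 6534 bp, with no other protein-coding start site in it. The strongest, 18.3 kb downstream of the start and beyond the end of the gene, was 2358, 2574 and 2474 bp wide. Its fold enrichment of 12.7, 13.7 and 12.3 was above that of the promoter peak in each list. A weaker peak followed at 22 kb with 3.54, 4.74 and 3.76.

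SNAI3, the least studied SNAI gene, lies on the minus strand at chr16:88677688-88686507 (ENSG00000185669.6) among acetylated neighbours. Its window held 7, 7 and 8 peaks covering 15273, 15042 and 13110 bp. Of 6 other protein-coding genes that start in it, 5 had a promoter peak in all 3 large lists: CYBA, MVD, RNF166, CTU2 and PIEZO1. The CYBA peak had a fold enrichment of 19.4, 18.3 and 13.6, and the PIEZO1 peak had 11.1, 9.28 and 6.52 and a width of 5042, 4793 and 4987 bp. CYBA encodes a subunit of the NADPH oxidase and PIEZO1 a mechanically gated ion channel. No peak lay within the SNAI3 gene itself, and every region of its window lay at or in another gene.

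Both ZEB genes had peaks inside the gene and peaks outside it. The ZEB1 window held 6, 6 and 7 peaks covering 7378, 9075 and 8414 bp. Inside the gene, peaks at 34.5 kb had a fold enrichment of 2.8, 3.9 and 3.58, and peaks at 108.0 kb had 4.85, 5.73 and 5.63. A peak at 284.0 kb, past the gene end, overlapped the start of the lncRNA ENSG00000223834 with 5.43, 6.29 and 6.15.

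The ZEB2 window held 8, 9 and 9 peaks covering 9157, 10544 and 9307 bp. The strongest lay at the start of GTDC1, the next gene downstream, with a fold enrichment of 9.91, 11.1 and 7.78. A region at 130 kb fell on an exon of ZEB2 with 6.59, 8.67 and 6.31, above the values at the start site itself. Regions at 92.8 kb, inside the gene, and at 170.0 kb, past its end, were called in both Hs578T lists and not in MDA-MB-231 replicate 2. Their fold enrichment there was 2.92 and 3.02, and 3.41 and 3.6.

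TWIST1 lies on the minus strand at chr7:19020991-19117636 (ENSG00000122691.13), where a long transcript makes the annotated gene 96.6 kb and the canonical transcript spans 2169 bp. Its window held 7, 8 and 7 peaks covering 8937, 9630 and 7595 bp, all of them distal, that is over 2.5 kb from every start site of a protein-coding or lncRNA gene. Parts of the neighbouring gene HDAC9, a histone deacetylase gene, are known to act as TWIST1 enhancers in development. Inside HDAC9, regions were called in all 3 large lists at 139.0, 159.0 and 179.0 kb from the TWIST1 start. The region at 179.0 kb had a fold enrichment of 8.07, 3.73 and 3.18 and stood at percentile 66.9 of the MDA-MB-231 replicate 2 list and 31.9 of the Hs578T replicate 1 list. An intergenic region at 107.0 kb had 6.25, 6.59 and 5.6 and widths of 2584, 2817 and 2812 bp. FERD3L, a bHLH gene in the same window, was unmarked.

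TWIST2, on the plus strand at chr2:238848032-238910534 (ENSG00000233608.5), combined an unmarked start with strong distal peaks. Its window held 4, 4 and 3 peaks covering 5514, 6122 and 5808 bp, and no other protein-coding gene starts in it. A peak inside the gene at 16.4 kb had a fold enrichment of 12.5, 11.3 and 11.6. A peak at 101.0 kb, past the gene end, had 13.6, 14.5 and 11.3 and a width of 3535, 3330 and 3809 bp. By fold enrichment both stood between percentiles 83.0 and 89.8 of all peaks of their lists.

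PRRX1, at chr1:170662728-170739421 on the plus strand (ENSG00000116132.12), had the least covered window after TCF4 in each large list, and the fewest peaks after it in the Hs578T lists. Its window held 5, 1 and 2 peaks covering 4754, 1270 and 1444 bp. The region at 44.1 kb, inside the gene, was called in all 3 large lists with a fold enrichment of 6.88, 4.52 and 5.11. Regions at −40.8, 143.0 and 147.0 kb appeared in no large list but MDA-MB-231 replicate 2, with a fold enrichment of 4.16, 3.3 and 3.35. Coverage of the window was 1.72% in that list and 0.459% and 0.522% in the Hs578T lists, the widest spread in ratio between large lists of any member with peaks.

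FOXC2, at chr16:86566829-86569728 on the plus strand (ENSG00000176692.8), had the most acetylated surroundings without a mark at its start. Its window held 9, 8 and 8 peaks covering 17890, 19291 and 19659 bp, at percentiles 78.8, 77.9 and 82.1 of all protein-coding genes by share of the window. The region at 98.1 kb, inside the lncRNA ENSG00000261161, had a fold enrichment of 35.1, 33.7 and 25.0, at percentiles 99.7, 99.6 and 99.3 of all peaks, and a width of 3941, 4319 and 4585 bp. Regions between genes at 18.9 kb had 26.6, 23.5 and 20.2, at 42.5 kb 14.8, 13.8 and 12.5, and at 65.0 kb 9.94, 11.6 and 10.4. The other forkhead genes of this cluster, FOXF1 and FOXL1, were unmarked at their start sites in every list, as were the lncRNAs FENDRR and FOXC2-AS1. The start of MTHFSD, at −11.6 kb, was marked in all 3 large lists. The lists do not tell which gene a distal region acts on.

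TCF4 (ENSG00000196628.20), which encodes the E-protein also called E2-2, lies on the minus strand at chr18:55222185-55664787, and its window of 642.6 kb held 0 peaks in every list. In all protein-coding genes, 8.34%, 8.12% and 8.27% had no peak within 100 kb in the large lists. Of 823 genes with windows of at least 500000 bp, 98, 99 and 102 had no peak, or 11.9%, 12% and 12.4%. The stretch without peaks around TCF4 measured 1536314, 1540326 and 1536443 bp. It ran from 121.0, 125.0 and 121.0 kb past the 3′ end of the gene to 973.0 kb upstream of its 5′ end. Chromosome 18 itself held 699, 722 and 698 peaks, so the stretch was not a chromosome missing from the lists.

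**Figure D3:**
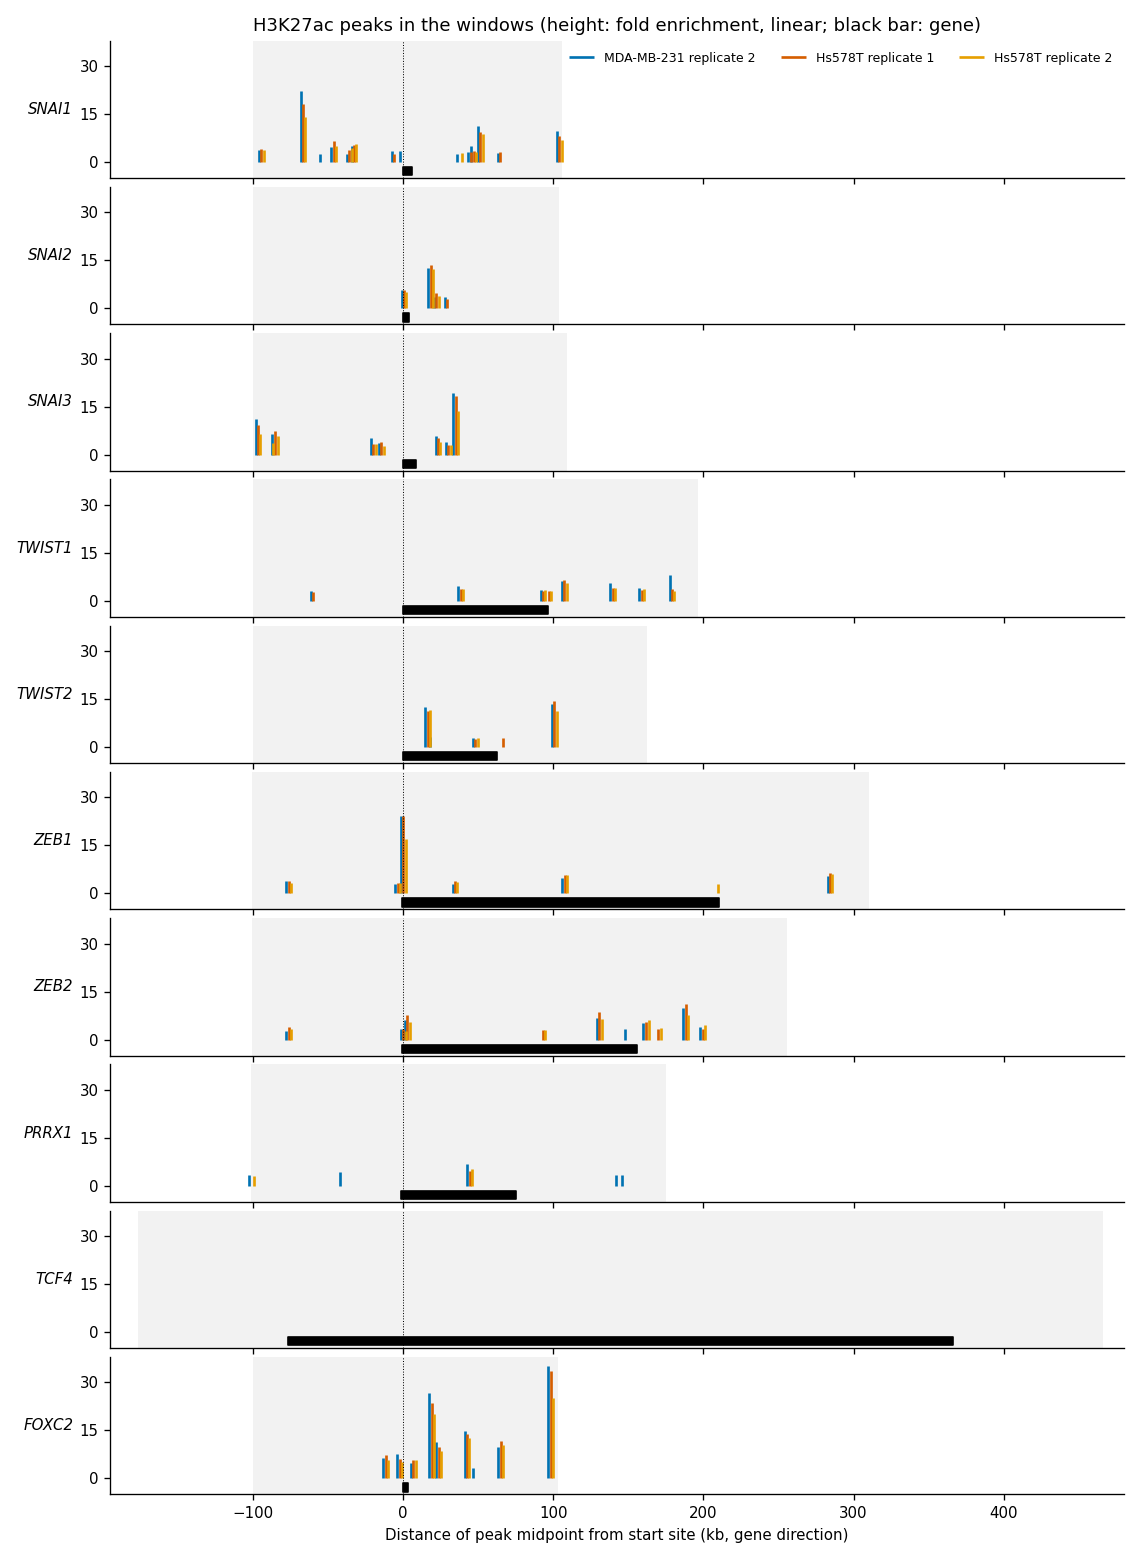
Peaks in the window of each member, with the distance of the peak midpoint from the canonical start in kb on the x axis, fold enrichment on a linear y axis, the gene as a black bar and the window shaded, for the large lists (lines of the 3 lists are set slightly apart so that they can be seen). The tallest lines are those of FOXC2 at 98.1 and 18.9 kb, at the ZEB1 start and near SNAI1 at −66.8 kb, and the TCF4 panel is empty.

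The large lists largely shared their peaks at these loci. Peaks of the 3 lists merged into 69 regions, of which 49 (71.0%) were called in all 3, 10 (14.5%) in a pair and 10 (14.5%) in a single list. Over the genome the shares were 74.8%, 10.0% and 15.2% of 50576 regions. MDA-MB-231 replicate 2 alone held 8 of the regions, and both Hs578T lists without it held 3. The genome shares of these patterns were not computed, so these counts show no line difference particular to the members. All 7 regions of SNAI3 were shared by all 3 lists, as were 8 of 9 of FOXC2 and 6 of 7 of ZEB1, against 1 of 5 of PRRX1. As a Jaccard index, the length that a pair of lists shares over the length that at least 1 of them covers, agreement was 0.791 between the Hs578T lists. It was 0.775 and 0.741 between MDA-MB-231 replicate 2 and the Hs578T lists, so the list of the other line overlapped each Hs578T list almost as much as these overlapped each other, with no spread to judge the difference by. Line identity cannot be checked from peak lists, and values given by line rest on the labels. The pairs with MDA-MB-231 replicate 1 gave between 0.00209 and 0.00233.

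Most peaks near members were distal: 49 of 64, 44 of 58 and 42 of 56 in the large lists, or 76.6%, 75.9% and 75.0%, against 69.2%, 70.7% and 70.7% of all peaks. In the central 300 bases of the distal peaks, AP-1 (TGACTCA or TGAGTCA) was found in 20 of 49, 11 of 44 and 13 of 42. These shares of 40.8%, 25.0% and 31.0% stood beside 24.0%, 22.9% and 22.4% over all distal peaks of the same lists. The E-box CACCTG or CAGGTG was found in 28.6%, 27.3% and 23.8%, beside 19.4%, 19.5% and 19.5%. The same regions enter all 3 lists, so these are not 3 independent observations. For each member, the distal region called in all 3 large lists with the highest mean fold enrichment over them was searched for AP-1 in the part shared by the lists. It was also the highest distal peak in each single list, except for TWIST1 in MDA-MB-231 replicate 2, where the region at 179.0 kb was higher, and TWIST2 in Hs578T replicate 2, where that at 16.4 kb was. The bases around a match are shown for SNAI1, SNAI3, ZEB1, TWIST2, PRRX1 and FOXC2, and the match of SNAI2 is given by its count alone. Each is given 5′ to 3′ on the plus strand of hg38 with AP-1 in capitals.
SNAI1, chr20:50034939-50034999: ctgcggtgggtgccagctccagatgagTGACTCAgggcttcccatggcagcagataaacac
SNAI3, chr16:88770659-88770719: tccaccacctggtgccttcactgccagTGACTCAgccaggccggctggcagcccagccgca
ZEB1, chr10:31426299-31426359: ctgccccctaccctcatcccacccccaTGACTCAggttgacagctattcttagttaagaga
TWIST2, chr2:238948543-238948603: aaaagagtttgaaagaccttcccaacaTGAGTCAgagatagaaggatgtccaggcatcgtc
PRRX1, chr1:170708137-170708197: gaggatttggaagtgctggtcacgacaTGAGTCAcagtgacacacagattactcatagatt
FOXC2, chr16:86664703-86664763: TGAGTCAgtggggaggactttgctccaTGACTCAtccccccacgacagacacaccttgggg

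The FOXC2 stretch, 97.9 kb from the start site, held a pair of AP-1 matches, and the shared part of that region held 3. The shared part of the TWIST2 region at 101.0 kb held 2, those of SNAI1, SNAI2, SNAI3, ZEB1 and PRRX1 held 1 each, and those of TWIST1, at 107.0 kb, and ZEB2, at 130 kb, held 0. None of these AP-1 stretches overlaps an exon of any annotated transcript. The SNAI3 stretch lies in an intron of PIEZO1, and the ZEB1 and PRRX1 stretches lie in introns of these genes. A match is a run of letters and not a measured binding site. The shared parts searched measured from 740 bp for ZEB2 to 3941 bp for FOXC2. All were longer than the central bases used for the shares over all distal peaks. No such share was computed at these lengths, so whether the shared parts hold AP-1 more often than other distal regions was not tested.

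The partners, opponents and targets of these factors were examined by the same rule in lists chosen with results of these data known. Only the canonical start site of each gene was used here, so an unmarked gene may have a peak at another start. No gene of these lists was marked in MDA-MB-231 replicate 1. Among ID proteins, which hold bHLH factors such as TWIST and E-proteins away from DNA, 3 of 4 genes were marked in each large list, with ID4 unmarked. The ID3 peak was 9.92, 9.39 and 9.24 kb wide and the ID1 peak 9.78, 9.72 and 9.47 kb. Among corepressors of SNAI and ZEB proteins 9 of 10 were marked, with CTBP2 unmarked and SIN3A widest at 7.21, 7.23 and 7.03 kb. Paralogues and other EMT-associated factors were marked at 6, 6 and 5 of 9. FOXC1, the paralogue of FOXC2, was marked in all 3 lists with 3.55, 3.91 and 3.67 kb, and so were the E-protein genes TCF3 and TCF12, relatives of TCF4. FOXQ1 was widest with 6.18, 6.34 and 6.24 kb. GSC, KLF8 and PRRX2 were unmarked, and FOXF2 was marked in MDA-MB-231 replicate 2 and Hs578T replicate 1 alone.

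Epithelial factors that oppose EMT were marked at 3 of 10 in each large list. ELF3 and ESRP2 were marked in all 3, whereas GRHL2 was marked in MDA-MB-231 replicate 2, GRHL1 in Hs578T replicate 1 and EHF in Hs578T replicate 2. ELF5, ESRP1, GRHL3, OVOL1 and OVOL2 were unmarked. Of 10 epithelial genes that SNAI and ZEB proteins are known to repress, 7, 7 and 6 were marked. CDH1, CRB3 and MARVELD3 were unmarked in every list, and EPCAM was marked in all large lists but Hs578T replicate 2. CLDN4, a tight junction gene, had the widest peak at 7.05, 7.07 and 6.77 kb.

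The labelled cell types were set beside their markers. Mesenchymal genes were marked at 5, 6 and 5 of 8, with AXL, a receptor tyrosine kinase, widest at 18.3, 17.2 and 17.3 kb and VIM at 13.2, 13.4 and 13.5 kb. CDH2 and MMP2 were unmarked, and SPARC was marked in Hs578T replicate 1 alone. The luminal markers ESR1, GATA3 and FOXA1 were unmarked in every list. Of all genes in these lists and the members, GRHL2 and SNAI1 were the ones whose mark was called in MDA-MB-231 replicate 2 and in neither Hs578T list. The GRHL2 peak was 1.14 kb wide with a fold enrichment of 5.12. No gene of these lists or of the members was marked in both Hs578T lists and not in MDA-MB-231 replicate 2. The share of all protein-coding genes with either pattern was not computed. Whether these calls are unusual is therefore unknown.

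**Figure D4:**
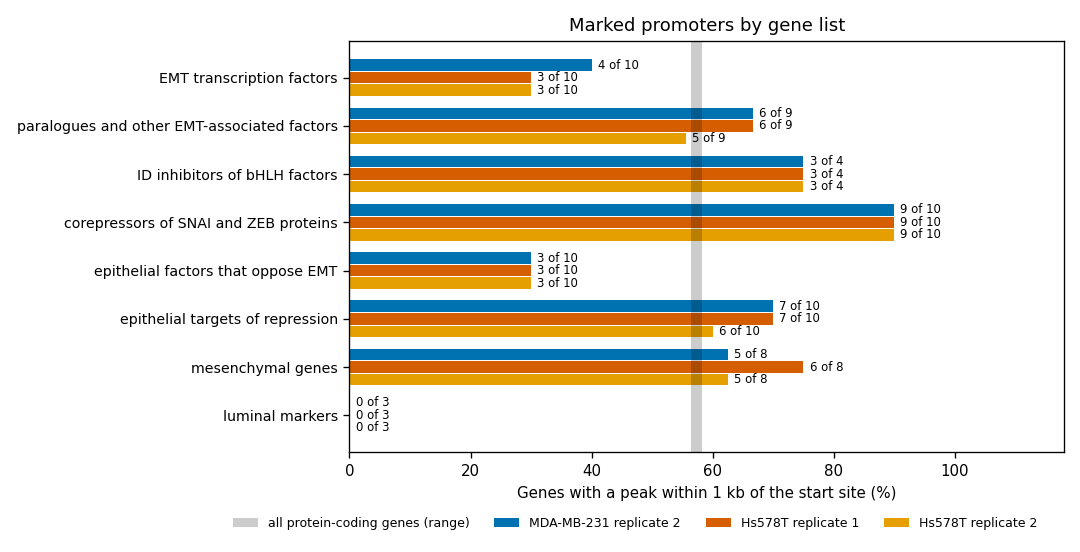
Percentage of genes with an H3K27ac peak within 1 kb of the canonical start site in each gene list, with 1 bar per large list, the counts at the bar ends, and a grey band for all protein-coding genes (56.4 to 58.2%). The EMT transcription factors (3 or 4 of 10), the epithelial factors that oppose EMT (3 of 10) and the luminal markers (0 of 3) lie below the band. The corepressors (9 of 10) and the ID genes (3 of 4) lie above it. So do the mesenchymal genes (5 or 6 of 8) and the epithelial targets of repression (6 or 7 of 10). The lowest bars of these last lists are close to the band. The paralogues and other EMT-associated factors (5 or 6 of 9) lie on either side of it.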

How the data were processed

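H3K27ac ChIP-seq peak lists of 4 libraries, 2 biological replicates each of MDA-MB-231 and Hs578T, were analysed, and groups and replicate numbers were read from the sample titles. According to the submitters' processing notes and the study's methods, the authors trimmed reads with Trimmomatic, aligned them to hg38 with Bowtie2, called peaks per library with MACS2 over input DNA and took out blacklisted regions with bedtools. deepTools is also named. Versions and MACS2 settings are not given in the sources used here, and broad mode is inferred from the 9 columns. Replicates were not pooled.

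Each deposited peak has a start and an end, a score, a fold enrichment (a ratio over local background), and its p and q as −log10 values. The deposited score was used to rank peaks within a list, the deposited −log10 q-value to filter them, and the deposited fold enrichment to describe them. Read numbers were not analysed here, and peak calls depend on depth and on the input library.

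Gene models came from GENCODE release 44, and the start site is that of the Ensembl canonical transcript. Every sequence name was found in the reference, and 0 peaks ran past an end. A start site was marked if a peak lay within 1 kb of it, and windows were gene bodies with 100 kb flanks. Positions in kb run from the canonical start in the direction of transcription, negative upstream, to the middle of a region merged over the large lists. Distal peaks lay over 2.5 kb from every canonical start of a protein-coding or lncRNA gene. Promoters of 300 bases came from RefSeq (GRCh38.p14). Scripts in Python 3.11.15 with pandas 2.3.3, numpy 2.4.6 and pysam 0.24.0 were tested on simulated peaks.

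All 10 members are named. Of the other gene lists, genes were named if their marks differed between the large lists, if they had the widest promoter peak, or if 5 or fewer were marked or unmarked. ID1, FOXC1, TCF3, TCF12 and VIM were added after their values were seen. Neighbours were named if their start shares a member's promoter peak or holds the largest peak of a window, and others named beside a member were likewise added after their values were seen. The members and lists were chosen with earlier results of these data known. Alternatives were stricter peak sets, other windows, flanks and start sites, merging, removal of peaks at other start sites, another overlap measure and leaving out each replicate.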

Additional observations from a re-analysis of the deposited data

How the results depend on the processing

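Of 54 recomputed values of 8 results, 38 were counted as unmoved and 16 as moved. Counts of members and peaks were counted as moved if they changed by more than 1.5 times, and covered bases and the overlap between lines if they changed by more than 1 SD of the values they average. This SD was larger than the value itself for covered bases in MDA-MB-231 (66400 against 47131 bp) and for the overlap between lines (0.437 against 0.38). A fall in either could therefore not count as moved. For covered bases, leaving out 1 of 2 lists always shifts the mean by less than 1 SD. Such values were counted as unmoved by the rule alone and say nothing about stability. The overlap of the Hs578T replicates has no SD and was counted as moved outside its 95% Wilson interval over covered bases (0.789 to 0.794), which covers counting error only and is too narrow, since neighbouring bases are not independent. With the strongest 50% of each list by score, Hs578T covered 68193 bp with 28.5 peaks and an overlap of 0.844 between its replicates, and MDA-MB-231 averaged 12.5 peaks and 0.5 marked members. Windows of 50 kb around the gene body gave 61951 bp and an overlap of 0.797 in Hs578T, and gene bodies alone gave 16145 bp and 0.801. Without peaks at other genes' start sites, Hs578T covered 73490 bp. Counting peaks that overlap by at least 50% of both, as a share of the shorter list, gave 0.857 between the Hs578T replicates and 0.921 between lines, since a list with 1 peak can share all of it. Between lines the Jaccard index averaged 0.38 ± 0.437 and ran from 0.00221 to 0.758 when single replicates were left out, lowest without MDA-MB-231 replicate 2 and highest without MDA-MB-231 replicate 1. Leaving out either MDA-MB-231 replicate gave 0 to 4 marked members, 1 to 64 peaks and 201 to 94061 covered bp. In Hs578T the same gave 3 marked members, 56 to 58 peaks and 86332 to 96272 covered bp. The fall in bases and peaks follows from fewer peaks or shorter windows, and for the other changes the cause was not tested.

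The number of marked members was 4, 3 and 2 in the large lists with a q-value at most 0.01, 1, 2 and 2 in the strongest 50%, and 5, 4 and 4 with a window of 2.5 kb. The share over all protein-coding genes was not computed under these settings. Whether the members moved differently from all genes is therefore unknown. No paired analysis was possible because the values come from peak counts and covered lengths with no test, and the replicate numbers are not stated to link the lines. What depth limits cannot be given, because read numbers were not analysed here.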
